A study of Mus musculus with 15 samples.

Results

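The genes described here are 34 genes of glycolysis and of the response to low oxygen, taken by gene name from 34554 genes and added sequences in the files. They comprise 18 glycolytic enzymes and their transporters, 3 genes of oxygen sensing (Hif1a, Egln1 and Egln3) and 13 other targets of the hypoxia-inducible factors. They were measured by RNA sequencing in organoids of normal mouse pancreatic ducts, hollow epithelial cultures in Matrigel, in which doxycycline can switch on CA19-9, a carbohydrate epitope absent from mice and used as a blood marker of pancreatic disease. Inducible lines A217, A220 and A225 carried every allele that CA19-9 needs, while negative lines A218 and A223 lacked a required allele that the labels do not name. Each of these 5 organoid lines was harvested without doxycycline (0 h) and after 4 h and 24 h with 1 µg/ml of the drug. The resulting 15 libraries form 6 groups, with 3 lines per time in inducible cultures and 2 in negative cultures. All cultures had fresh medium 24 h before a common harvest, per the labels' protocols, so the 0 h cultures shared the medium change but not the drug. Each line is counted as 1 replicate, since mouse strain, age and the number of animals behind the lines are not given in the sources used here.

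Glycolysis breaks glucose down to pyruvate, and cells short of oxygen turn pyruvate into lactate and export it. With oxygen present, prolyl hydroxylases encoded by the Egln genes mark the alpha subunits of the hypoxia-inducible factors for destruction. When oxygen is low these subunits persist, pair with ARNT and bind a short core motif, which raises the transcription of glycolytic enzymes, of genes for blood supply, pH and mitochondrial turnover, and of Egln1 and Egln3 themselves. Ductal organoids are epithelial cysts without blood vessels, and their oxygen supply comes by diffusion through medium and gel.

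Library totals lay between 47915632 and 59411540 estimated counts. Values below are CPM, the share of a library's counts with TMM scaling, unless TPM, which also corrects for transcript length, is named. The human transcripts of the induced alleles lay between 731 and 1046 CPM at 24 h and between 695 and 918 CPM at 4 h in inducible lines, and at no more than 3 CPM in their 0 h libraries and 1.99 CPM in negative lines. All 10 duct markers averaged at least 1 CPM, with a summed level of 10186 to 17280 CPM. Markers of acinar, endocrine, mesenchymal, immune, endothelial and erythroid cells summed to at most 1.91, 0.249, 5.34, 2.56, 6.9 and 5.68 CPM per library, and Cpa1, Ptf1a, Ins1, Ins2, Gcg, Adgre1 and Hba-a2 stood at 0. Libraries of different lines in a group differed by far more than counting noise (chi-square per degree of freedom of 15.28 to 44.26 over 12 pairs).

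Per unit of transcript length, Pkm, Gapdh and Ldha led the members. Pkm, pyruvate kinase of the last step, had the highest median over the 15 libraries with 2064 TPM (1775 to 2256). Gapdh, the dehydrogenase of the middle of the pathway, followed with 1764 TPM (1445 to 2090), and Ldha, which turns pyruvate into lactate, with 1238 TPM (1030 to 1498). Aldoa (aldolase), Eno1 (enolase) and Pgk1 (phosphoglycerate kinase) had medians of 1109, 960 and 888 TPM, and their ranges overlapped those of neighbours in this order. Among the other hypoxia targets, Mif, a cytokine and tautomerase, stood highest with 954 TPM (769 to 1070). The lowest members were Slc16a3, the lactate exporter of glycolytic cells, with 4.59 TPM (0.573 to 16.1), and Adm, the peptide hormone adrenomedullin, with 0.771 TPM (0.263 to 1.94). Together the 18 glycolytic genes held 0.924% ± 0.0399 of all TPM at 24 h in inducible lines, against 1.01% ± 0.108 at 0 h (SD, n = 3). In negative lines they held 1.01% ± 0.0681 at 24 h, against 1.03% ± 0.0642 at 0 h (SD, n = 2). The 13 other targets held 0.128% ± 0.00589 at 24 h in inducible lines, against 0.153% ± 0.0134 at 0 h. In negative lines these held 0.138% ± 0.00578 at 24 h, against 0.146% ± 0.00119 at 0 h.

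For the members whose promoters are shown next, the RefSeq promoter windows of GRCm38.p6 span 250 bases before and 50 after a gene's start. The windows of Egln3 (chr12:54203825-54204124), Ankrd37 (chr8:45999801-46000100), Hk2 (chr6:82774405-82774704) and Pfkp (chr13:6648722-6649021), all on the minus strand, belong to genes that fell at 24 h. Those of Pgk1 (chrX:106186850-106187149) and Ldha (chr7:46845554-46845853), on the plus strand, belong to abundant enzymes that were not called when the lines were not paired. Capitals mark the core motif of the hypoxia-inducible factors, ACGTG or GCGTG, on either strand, where overlapping matches merge into 1 run.
Egln3: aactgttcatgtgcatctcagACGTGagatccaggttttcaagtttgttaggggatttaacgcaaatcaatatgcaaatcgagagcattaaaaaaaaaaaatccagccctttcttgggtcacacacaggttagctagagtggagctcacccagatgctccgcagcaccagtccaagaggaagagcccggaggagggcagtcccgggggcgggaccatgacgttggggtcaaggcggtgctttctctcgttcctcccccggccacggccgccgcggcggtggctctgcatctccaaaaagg
Ankrd37: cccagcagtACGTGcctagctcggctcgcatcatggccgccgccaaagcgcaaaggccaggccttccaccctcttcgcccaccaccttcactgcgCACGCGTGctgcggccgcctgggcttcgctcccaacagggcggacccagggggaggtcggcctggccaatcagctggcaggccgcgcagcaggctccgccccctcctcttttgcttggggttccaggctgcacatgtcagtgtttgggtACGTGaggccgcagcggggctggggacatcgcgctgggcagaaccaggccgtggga
Hk2: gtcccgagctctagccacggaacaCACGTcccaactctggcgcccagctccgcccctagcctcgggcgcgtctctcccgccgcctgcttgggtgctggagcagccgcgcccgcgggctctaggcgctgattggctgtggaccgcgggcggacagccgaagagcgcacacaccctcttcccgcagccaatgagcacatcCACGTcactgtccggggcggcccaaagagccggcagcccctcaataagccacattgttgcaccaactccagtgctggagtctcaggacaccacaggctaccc
Pfkp: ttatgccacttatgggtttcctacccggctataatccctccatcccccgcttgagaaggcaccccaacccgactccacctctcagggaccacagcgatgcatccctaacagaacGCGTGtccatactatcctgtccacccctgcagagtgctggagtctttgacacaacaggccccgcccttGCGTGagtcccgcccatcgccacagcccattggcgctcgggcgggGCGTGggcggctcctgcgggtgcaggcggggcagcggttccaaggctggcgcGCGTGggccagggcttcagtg
Pgk1: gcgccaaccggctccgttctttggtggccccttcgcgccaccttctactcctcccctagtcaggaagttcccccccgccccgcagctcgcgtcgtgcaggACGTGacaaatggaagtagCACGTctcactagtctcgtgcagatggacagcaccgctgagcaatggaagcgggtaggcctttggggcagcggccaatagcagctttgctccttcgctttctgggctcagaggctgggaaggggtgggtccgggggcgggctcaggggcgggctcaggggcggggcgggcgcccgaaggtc
Ldha: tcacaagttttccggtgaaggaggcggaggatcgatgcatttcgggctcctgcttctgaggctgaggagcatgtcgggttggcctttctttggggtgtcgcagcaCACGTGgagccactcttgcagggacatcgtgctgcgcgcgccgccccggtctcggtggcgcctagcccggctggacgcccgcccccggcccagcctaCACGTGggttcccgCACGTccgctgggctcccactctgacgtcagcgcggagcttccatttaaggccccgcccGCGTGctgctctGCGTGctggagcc
The motif matched at 1 place in the window of Egln3, 4 in Ankrd37, 2 in Hk2, 4 in Pfkp, 2 in Pgk1 and 7 in that of Ldha. Matches were thus found both in genes that fell and in the enzymes shown beside them, and the Ldha window had the most of these 6. Ldha was itself slightly lower at 24 h in all 5 lines and was called with the lines paired, as given below. The enzymes shown beside the genes that fell are therefore not a set that stayed level. Overlapping matches on both strands, as in the CACGTG runs of Ldha and the CACGCGTG run of Ankrd37, count as 2 places each. Another Ldha window, not shown, held matches at -59 and 40 bases from its start. At least 1 match was found in 37 of 46 windows of the members (80.4%), against 43.8% of all 32851 promoter windows in the table. Among all windows with at least 60% G and C, 69.2% held a match, and the median G and C content was 62.8% in the members' windows and 52.7% in all windows. Of the 34 members 32 had a window. A match is a run of letters and says nothing of binding in these cells.

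After 24 h of doxycycline the prolyl hydroxylase genes Egln1 and Egln3, and also Ankrd37, Hk2, Pfkp and Adm, were lower in all lines. Without pairing of the lines, 16 of 18 glycolytic genes were not called. Of the 13 other targets only Ankrd37, Adm and Bnip3l were called in that test. With the lines paired, the glycolytic genes Ldha, Slc16a3 and Slc2a1 were called as well, as given below. Taking the mean of the responses of both genotypes, 6 of 34 members fell and 1 rose (edgeR quasi-likelihood test, adjusted p below 0.05 over 16462 features). The members that fell were Egln1, Egln3, Ankrd37, Hk2, Pfkp and Adm, and Bnip3l rose. Of all tested features 18.7% were called in this comparison, 7.83% lower and 10.9% higher. For these 7 genes the CPM of the 5 lines at 24 h did not overlap those at 0 h, which held for 5.28% of all features in the lower and 7.88% in the higher direction. The other 27 members overlapped.

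Egln1 encodes the main prolyl hydroxylase that marks HIF1A when oxygen is present (ENSMUSG00000031987.6, chromosome 8, 124908587 to 124949324, minus strand, GRCm38). At 24 h it stood at 26.8, 29.1 and 28 CPM in A217, A220 and A225, against 35.9, 39.8 and 35.7 CPM at 0 h. In negative lines A218 and A223 it stood at 29.3 and 28.6 CPM, against 38.3 and 40 CPM at 0 h. Every 24 h library was therefore below every 0 h library, in both genotypes. Its 4 h levels, 33.2, 34.2 and 37 CPM in inducible lines and 39.4 and 41.7 CPM in negative lines, overlapped those at 0 h. The log2 change at 24 h was -0.42 ± 0.05 (SE; edgeR adjusted p = 0.000302), a 1.34-fold fall, and it was the member with the smallest adjusted p.

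Egln3 encodes a related prolyl hydroxylase that is itself induced by low oxygen (ENSMUSG00000035105.5, chromosome 12, 54178981 to 54203860, minus strand). It stood at 59, 66.6 and 57.1 CPM at 24 h in A217, A220 and A225, against 77.7, 122 and 85.8 CPM at 0 h. For A218 and A223 the 24 h values were 63.8 and 53.1 CPM, against 88.1 and 81.4 CPM at 0 h. All 5 lines were lower at 24 h, and A220 stood apart from the rest at 0 h. At 4 h it had 66.1, 67.3 and 83.9 CPM in inducible lines and 84.9 and 87.3 CPM in negative lines, and in A217 and A220 the 4 h value was already below every 0 h value. The log2 change at 24 h was -0.59 ± 0.12 (edgeR adjusted p = 0.00505).

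Hif1a, the alpha subunit that these enzymes mark, was not called in any of the 11 comparisons. It lay between 150 and 203 CPM over the 15 libraries, with a log2 change of 0.06 ± 0.09 at 24 h (edgeR adjusted p = 0.691). Its lowest value was at 0 h in A220 and its highest at 24 h in A225. The amount of the protein, whose destruction is the regulated step, was not measured and cannot be read from RNA levels alone.

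Ankrd37, an ankyrin repeat protein and a target of the hypoxia-inducible factors, had the largest fall of the called members after Adm (ENSMUSG00000050914.16, chromosome 8, 45996902 to 46005707, minus strand). At 24 h it had 2.85, 3.37 and 1.9 CPM in A217, A220 and A225, against 7, 14.4 and 6.83 CPM at 0 h. In A218 and A223 it had 2.41 and 3.53 CPM, against 5.47 and 8.84 CPM at 0 h. The 5 libraries at 24 h were the 5 lowest of all 15. At 4 h it had 4.72, 5.46 and 7.94 CPM in inducible lines and 6.86 and 11.6 CPM in negative lines, lower than at 0 h in A217 and A220 and higher in the other lines. The log2 change at 24 h was -1.53 ± 0.28 (edgeR adjusted p = 0.00335), a 2.89-fold fall.

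Hk2 encodes the inducible hexokinase, which traps glucose in the cell (ENSMUSG00000000628.10, chromosome 6, 82725025 to 82774454, minus strand). It stood at 34.1, 40.6 and 34 CPM at 24 h in A217, A220 and A225, against 45.3, 61.7 and 50 CPM at 0 h. Among negative lines, A218 and A223 had 40.7 and 40.8 CPM, against 52.5 and 57.4 CPM at 0 h. The groups did not overlap, and the log2 change was -0.48 ± 0.10 (edgeR adjusted p = 0.00537). Its 4 h values were 42.9, 49.5 and 54.6 CPM in inducible lines and 54.1 and 63.9 CPM in negative lines. Hk1, the constitutive hexokinase, moved by 0.07 ± 0.11 at 24 h and was not called (edgeR adjusted p = 0.73), with 54.2 to 85.1 CPM over all libraries.

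Pfkp encodes the platelet isoform of phosphofructokinase, the enzyme of the committing step (ENSMUSG00000021196.14, chromosome 13, 6579768 to 6648777, minus strand). At 24 h it had 120, 128 and 94.6 CPM in A217, A220 and A225, against 161, 204 and 144 CPM at 0 h. A218 and A223 had 122 and 128 CPM, against 164 and 175 CPM at 0 h. All 24 h values were below all 0 h values, with a log2 change of -0.50 ± 0.10 (edgeR adjusted p = 0.00411). The 4 h values, 155, 165 and 156 CPM in inducible lines and 173 and 187 CPM in negative lines, lay within or above the 0 h range. Pfkl, the liver isoform, moved by -0.02 ± 0.11 at 24 h and was not called (edgeR adjusted p = 0.937), with 178 to 293 CPM over all libraries.

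Bnip3l, a receptor for the removal of mitochondria, was the only member that rose in the unpaired test (ENSMUSG00000022051.15, chromosome 14, 66985239 to 67008877, minus strand). It stood at 144, 166 and 172 CPM at 24 h in A217, A220 and A225, against 136, 140 and 140 CPM at 0 h. The negative lines A218 and A223 had 156 and 164 CPM, against 133 and 139 CPM at 0 h. The groups did not overlap, and the log2 change was 0.22 ± 0.05 (edgeR adjusted p = 0.015). At 4 h the values were 135, 139 and 150 CPM in inducible lines and 137 and 155 CPM in negative lines. Its relative Bnip3, with a like role, went the other way in value, with 2.56, 6.99 and 3.9 CPM at 24 h in A217, A220 and A225, against 5.63, 17.4 and 6.12 CPM at 0 h. Bnip3 in A218 and A223 had 8.09 and 7.82 CPM, against 9.11 and 9.4 CPM at 0 h. Its log2 change of -0.67 ± 0.37 was not called (edgeR adjusted p = 0.236) unless lines were paired (-0.65 ± 0.20, adjusted p = 0.0207).

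Adm rested on few reads, with 2, 12 and 18 estimated counts at 24 h in A217, A220 and A225, against 21, 74 and 54 at 0 h. Its values in A218 and A223 were 13 and 12 counts, against 25 and 40 at 0 h. Each line had fewer counts at 24 h, and the log2 change was -1.69 ± 0.53 (edgeR adjusted p = 0.0418). That call held in 5 of 15 fits with 1 library left out, where the adjusted p reached 0.133. Bnip3l kept its call in 13 of these 15 fits, with adjusted p up to 0.0811, and Egln1, Egln3, Ankrd37, Hk2 and Pfkp kept theirs in all 15.

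**Figure D1:**
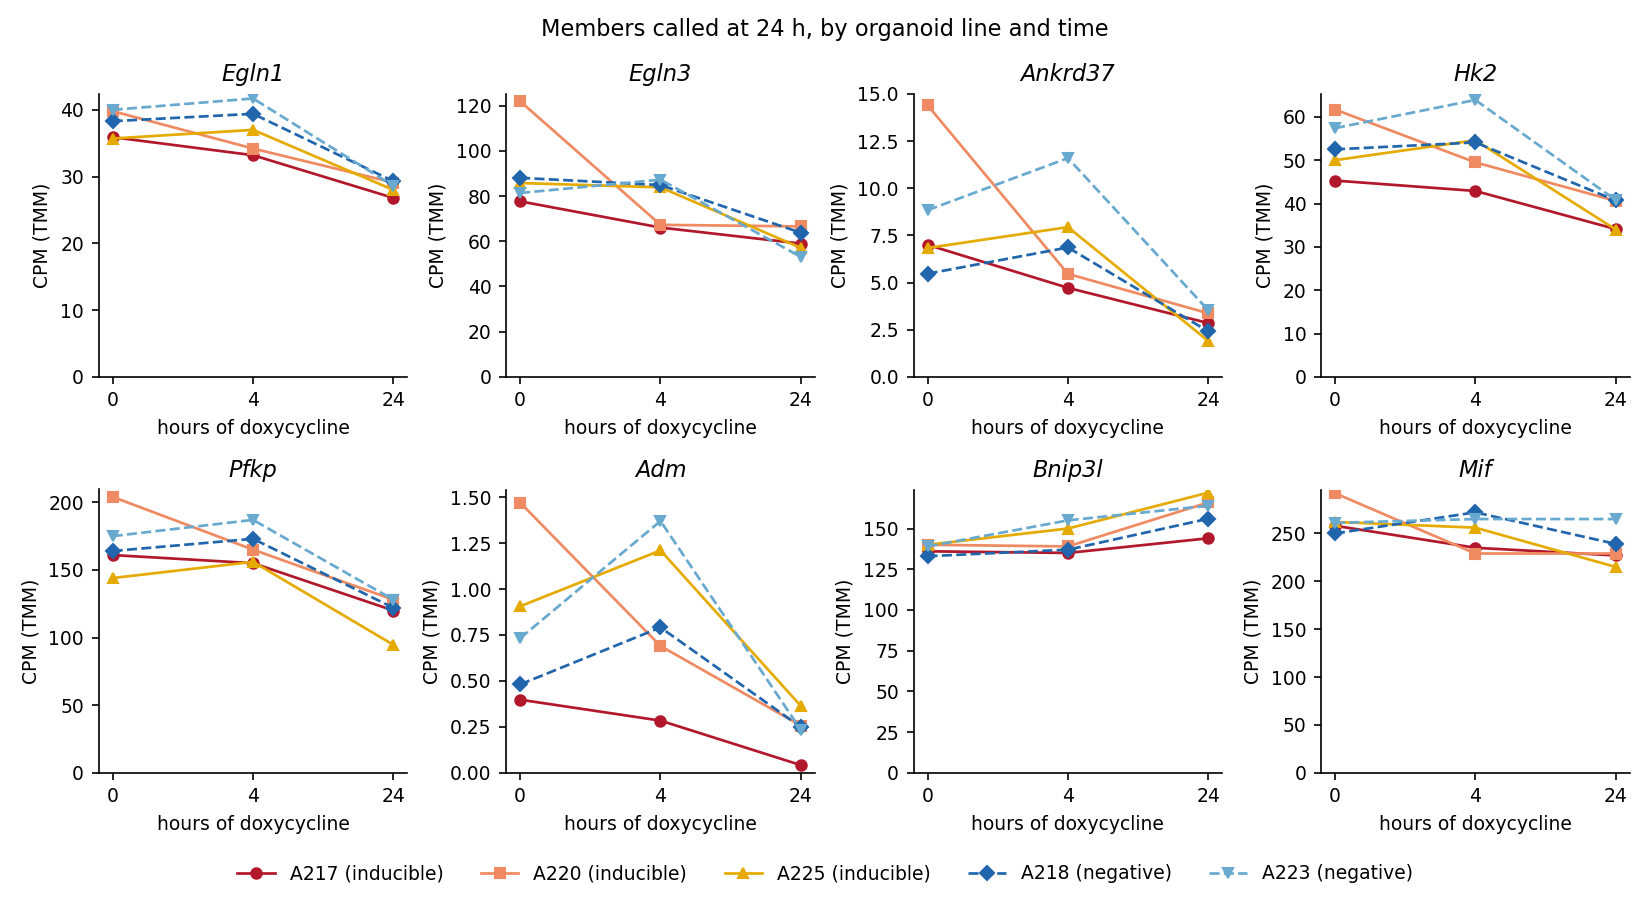
CPM with TMM scaling (y axes, each from 0) at 0, 4 and 24 h of doxycycline (x axes, times evenly spaced) for the 8 members called at 24 h, 1 point per library, with solid lines for inducible and dashed lines for negative organoid lines. Egln1, Egln3, Ankrd37, Hk2, Pfkp and Adm lie lower and Bnip3l higher at 24 h than at 0 h in all 5 lines, while A217 and A220 part from the other lines at 4 h in most panels; Mif is lower at 24 h in the inducible lines.

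Within the inducible lines alone, 6 of 34 members fell at 24 h and none rose, against 4.93% of all features called, 1.49% lower and 3.44% higher. These were Egln1 (-0.41 ± 0.07, edgeR adjusted p = 0.00542), Ankrd37 (-1.80 ± 0.35, 0.0145), Pfkp (-0.57 ± 0.12, 0.0204), Mif (-0.28 ± 0.06, 0.0269), Egln3 (-0.65 ± 0.15, 0.028) and Hk2 (-0.53 ± 0.12, 0.0285). Mif stood at 227, 229 and 215 CPM at 24 h in A217, A220 and A225, against 258, 292 and 262 CPM at 0 h. In A218 and A223 it had 239 and 265 CPM at 24 h, against 250 and 261 CPM at 0 h, where the groups overlapped. Its 4 h values were 235, 229 and 256 CPM in inducible lines and 272 and 265 CPM in negative lines. The number of members called dropped to 0 when only the 0 h and 24 h inducible libraries were fitted, to 1 without the 24 h library of A225 and to 2 without the 0 h library of A220. It was 13 with the line as a replicate block, which called 24.2% of all features, 10.2% lower and 14.0% higher. With 1 library left out of the unpaired fit, Egln1 kept its inducible call in all 15 fits and Ankrd37 in 14. Egln3, Hk2 and Pfkp kept theirs in 12 of 15 fits each, and Mif in 11.

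In the negative lines the test called 1 of 34 members at 24 h, Egln1 (-0.44 ± 0.08, edgeR adjusted p = 0.0124), against 3.80% of all features called, 1.06% lower and 2.73% higher. For Mif the change there was -0.02 ± 0.08 (edgeR adjusted p = 0.939). Other genes that fell or rose over both genotypes had changes of the same sign there, not called, with -0.54 ± 0.18 for Egln3 (edgeR adjusted p = 0.114), -1.27 ± 0.43 for Ankrd37 (0.116), -0.43 ± 0.15 for Hk2 (0.121), -0.43 ± 0.15 for Pfkp (0.117) and 0.23 ± 0.08 for Bnip3l (0.142). The Egln1 call ended without any 1 of the 4 libraries of the compared negative groups. With the line as a replicate block 8 of 34 members were called, 5 lower (Egln1, Egln3, Ankrd37, Hk2 and Pfkp) and 3 higher (Bnip3l, Aldoc and Pfkfb4), where 22.5% of all features were called, 8.83% lower and 13.6% higher.

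No member passed the test of the difference between the 24 h responses of inducible and negative lines, where 0.0121% of all features were called. There 1 member had an unadjusted p below 0.05, and the fit with the replicate block and limma-voom called none either. The estimated difference was -0.53 ± 0.55 for Ankrd37, 0.03 ± 0.10 for Egln1, -0.11 ± 0.23 for Egln3, -0.10 ± 0.19 for Hk2 and -0.14 ± 0.19 for Pfkp (edgeR adjusted p = 1 each). For Mif it was -0.26 ± 0.10 (edgeR adjusted p = 1). In 5 members, Pfkl, Aldoa, Tpi1, Gapdh and Eno1, the 3 inducible lines were all lower and both negative lines all higher at 24 h than at 0 h, a pattern of 2.16% of all features. The opposite pattern was found in 0 members and in 1.90% of all features. Pfkl had the largest of these differences, -0.37 ± 0.23 (edgeR adjusted p = 1).

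The summed duct markers were also higher at 24 h, with 14688 to 16473 CPM against 11049 to 13359 CPM at 0 h in inducible lines and 16657 to 17280 CPM against 11954 to 12068 CPM in negative lines. Their part in the 24 h differences was not tested. In bulk RNA, fewer cells that express a gene and less RNA per cell cannot be told apart.

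**Figure D2:**
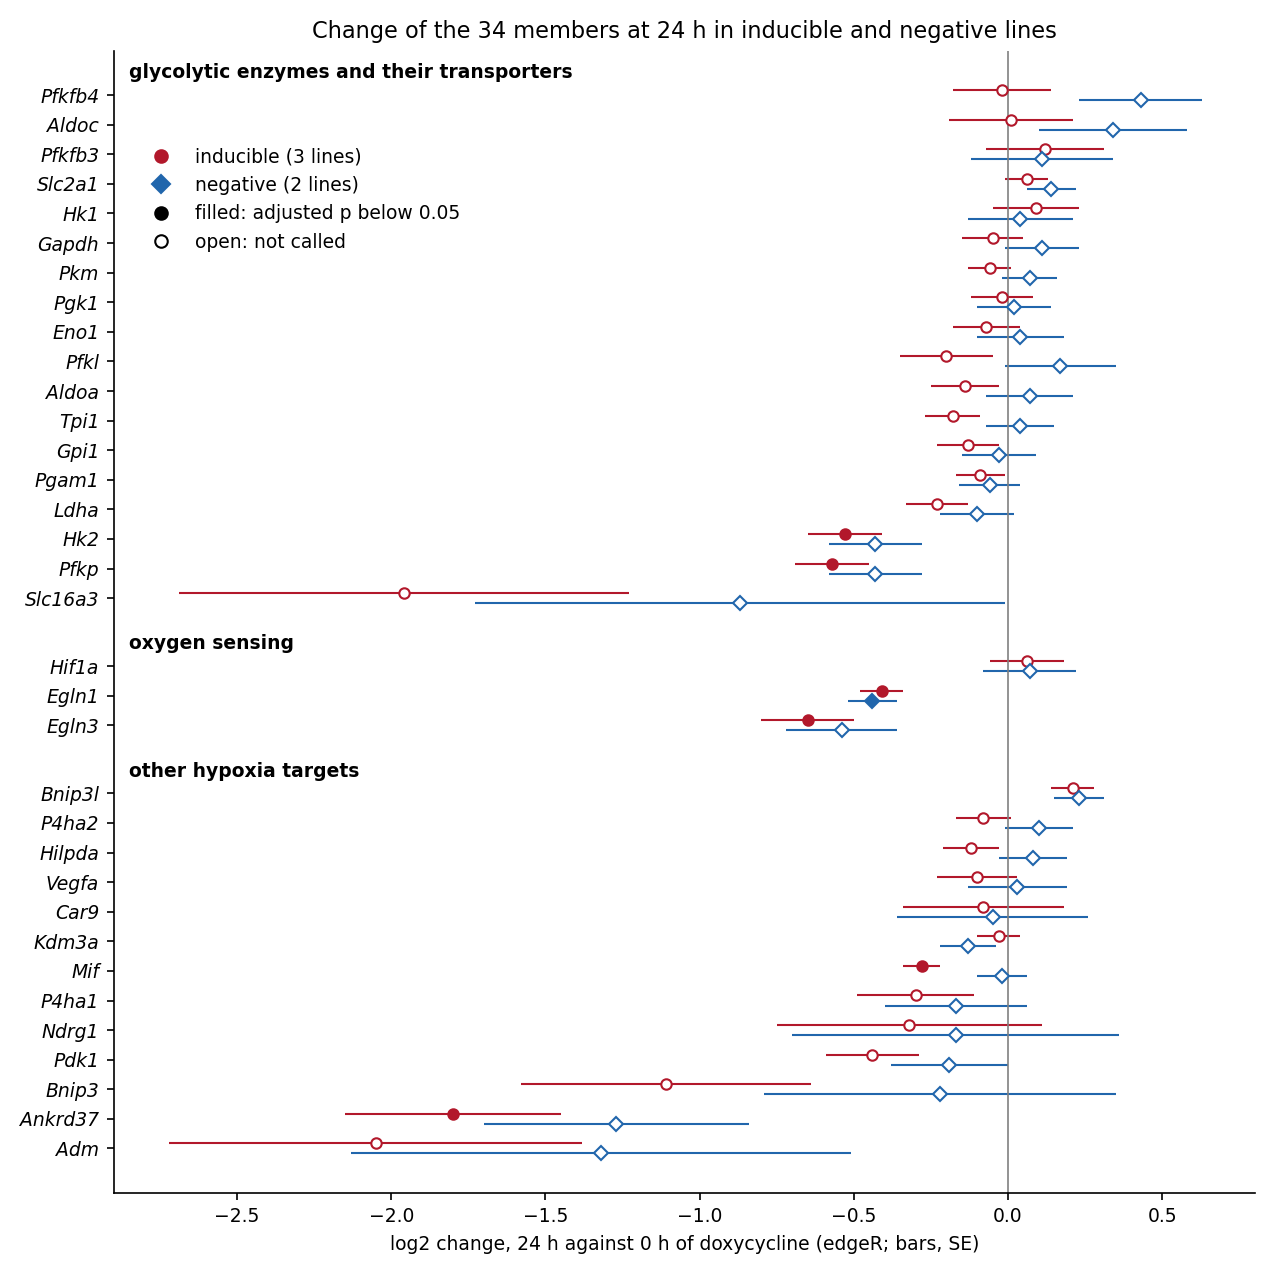
Log2 change at 24 h against 0 h of doxycycline (x axis; edgeR, bars give the SE) for all 34 members in the inducible lines (red circles, 3 lines) and the negative lines (blue diamonds, 2 lines), ordered within each list by the mean of both; filled symbols passed an adjusted p of 0.05. Most glycolytic enzymes lie near 0, Hk2, Pfkp, Egln1 and Egln3 lie between -0.65 and -0.41 in both genotypes, and Slc16a3, Ankrd37 and Adm have the lowest values with wide errors.

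Of the glycolytic list, Hk2, Pfkp, Gpi1, Pgam1, Ldha and Slc16a3 were lower at 24 h in all 5 lines. The log2 changes of Slc16a3 within the lines lay between -2.13 and -0.60. The median of the glycolytic list was nevertheless close to 0. Its 18 members had a median log2 change of -0.02 over both genotypes, -0.08 in inducible and 0.04 in negative lines, while the median of all features lay within 0.01 of 0 in each. The 13 other targets had medians of -0.15, -0.28 and -0.13 in the same comparisons, and 11 of 13 lay below 0 over both genotypes, against 11 of 18 glycolytic genes and 50.1% of all features. In the unpaired test none of the 6 members above 1000 CPM on average was called. Pkm had 3050, 3064 and 2921 CPM at 24 h in A217, A220 and A225, against 2877, 3467 and 3056 CPM at 0 h. Among negative lines, A218 and A223 had 3222 and 3373 CPM, against 3046 and 3232 CPM at 0 h, so the times overlapped in both genotypes. Its 4 h values were 2647, 2886 and 3023 CPM in inducible lines and 3189 and 3164 CPM in negative lines.

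Gapdh had 1344, 1561 and 1425 CPM at 24 h in A217, A220 and A225, against 1360, 1683 and 1454 CPM at 0 h. A218 and A223 had 1528 and 1795 CPM, against 1495 and 1592 CPM at 0 h. Pgk1 had 950, 1025 and 998 CPM at 24 h in inducible lines, against 877, 1185 and 956 CPM at 0 h. These enzymes make and use the high-energy intermediates from which glycolysis draws its ATP, and in both the times overlapped. Pgk1 had 1052 and 1104 CPM in A218 and A223 at 24 h, against 1020 and 1108 CPM at 0 h. Aldoa, which splits the phosphorylated sugar, had 927, 1076 and 951 CPM at 24 h in A217, A220 and A225, against 950, 1290 and 1008 CPM at 0 h. The negative lines A218 and A223 had 1038 and 1161 CPM, against 985 and 1105 CPM at 0 h. Each inducible line was slightly lower and each negative line slightly higher. At 4 h Gapdh had 1201, 1334 and 1478 CPM in inducible lines and 1450 and 1551 CPM in negative lines, and Pgk1 had 877, 1008 and 1048 CPM in inducible lines and 1063 and 1206 CPM in negative lines. Aldoa had 862, 988 and 1043 CPM at 4 h in inducible lines and 1076 and 1149 CPM in negative lines.

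Pairing the libraries of a line lowered the spread, and more members passed at 24 h. With the line as a replicate block, 14 of 34 members were called over both genotypes, 12 lower and 2 higher, where 36.1% of all features were called, 15.4% lower and 20.7% higher. Ldha and the lactate exporter Slc16a3 were among them. Ldha had 1054, 1128 and 1034 CPM at 24 h in A217, A220 and A225, against 1139, 1436 and 1203 CPM at 0 h. Its values in A218 and A223 were 1135 and 1255 CPM, against 1192 and 1361 CPM at 0 h. It was lower in all 5 lines by a small margin, with a blocked log2 change of -0.16 ± 0.05 (edgeR adjusted p = 0.018, against 0.161 without the block). At 4 h it had 1039, 1120 and 1250 CPM in inducible lines and 1279 and 1450 CPM in negative lines.

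Slc16a3, which exports the lactate, had 1.24, 3.84 and 1.72 CPM at 24 h in A217, A220 and A225, against 3.56, 17.1 and 5.82 CPM at 0 h. In A218 and A223 it had 2.2 and 5.79 CPM, against 5.76 and 8.84 CPM at 0 h. All 5 lines were lower at 24 h, while the ranges of the times overlapped, with A220 far above the other lines at 0 h. The blocked log2 change was -1.43 ± 0.34 (edgeR adjusted p = 0.0047), against -1.42 ± 0.56 without the block (adjusted p = 0.0996). Pdk1 encodes a kinase that inhibits the oxidation of pyruvate in mitochondria. It had 55.3, 63.3 and 55.6 CPM at 24 h in A217, A220 and A225, against 69, 94.9 and 72.4 CPM at 0 h. Among negative lines, A218 and A223 had 63.2 and 75.1 CPM, against 71.7 and 86.3 CPM at 0 h. Its blocked log2 change was -0.31 ± 0.09 (edgeR adjusted p = 0.0143, against 0.0878 without the block).

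P4ha1, a collagen prolyl hydroxylase subunit, was the only member called at 4 h in any fit with the block, and it turned direction between the times. It stood at 28.9, 32.7 and 23.5 CPM at 0, 4 and 24 h in A217, 39.5, 35.4 and 30.6 CPM in A220, and 39.8, 51.3 and 34.1 CPM in A225. In negative lines it stood at 34.8, 51.2 and 32.3 CPM in A218 and at 42.4, 60.4 and 36.6 CPM in A223. It peaked at 4 h in every line except A220, and 24 h was the lowest time in each. The blocked log2 change over both genotypes was 0.33 ± 0.06 at 4 h (edgeR adjusted p = 0.00325) and -0.23 ± 0.06 at 24 h (adjusted p = 0.0079). Without the block these were 0.34 ± 0.15 (adjusted p = 0.384) and -0.23 ± 0.15 (adjusted p = 0.304).

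The members that were higher at 24 h with the block were few. Slc2a1, the main glucose importer of epithelia, had 154, 148 and 168 CPM at 24 h in A217, A220 and A225, against 143, 154 and 153 CPM at 0 h. A218 and A223 had 164 and 163 CPM, against 150 and 148 CPM at 0 h. It was higher in 4 of 5 lines, all but A220, by 0.10 ± 0.03 with the block (edgeR adjusted p = 0.0395, against 0.203 without). Its 4 h values were 139, 140 and 164 CPM in inducible lines and 153 and 154 CPM in negative lines. Aldoc, the brain isoform of aldolase, had 32.9 and 39.6 CPM in A218 and A223 at 24 h, against 26.4 and 30.8 CPM at 0 h, a blocked change of 0.34 ± 0.11 (edgeR adjusted p = 0.0337). In inducible lines it had 28.7, 41.3 and 28.8 CPM, against 30.1, 42.9 and 25.2 CPM at 0 h, where the groups overlapped. Its 4 h values were 24, 33.4 and 29.8 CPM in inducible lines and 31.9 and 38.9 CPM in negative lines.

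Pfkfb4, which sets the level of an activator of phosphofructokinase, had 9.49 and 10.7 CPM in A218 and A223 at 24 h, against 6.43 and 8.58 CPM at 0 h. The blocked change was 0.43 ± 0.14 (edgeR adjusted p = 0.0402). In inducible lines it had 8.45, 9.17 and 7.81 CPM at 24 h, against 8.57, 9.71 and 7.52 CPM at 0 h. It was not called there, with a change of -0.02 ± 0.11 in the blocked fit (edgeR adjusted p = 0.942). At 4 h it had 6.69, 10.5 and 9.32 CPM in inducible lines and 8.58 and 9.29 CPM in negative lines. The test of the difference between genotypes gave -0.45 ± 0.18 for Pfkfb4 (edgeR with the block, adjusted p = 0.577) and -0.32 ± 0.14 for Aldoc (0.59).

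At 4 h the main test called none of the 34 members in inducible lines (3 had an unadjusted p below 0.05), in negative lines (3) or over both genotypes (3), against 0.298%, 0.121% and 0.911% of all features. The features called lower at 4 h were 0.0729%, 0.0243% and 0.383% of all in these comparisons. DESeq2 called none in these comparisons either, while limma-voom called 1 member over both genotypes. The fit with the replicate block called P4ha1 higher in negative lines, where 2.04% of all features were called and 0.802% higher, and over both genotypes, where 8.67% were called, 3.75% higher and 4.92% lower. It called no member in inducible lines (13 had an unadjusted p below 0.05), against 3.05% of all features, 1.33% higher. Direction at 4 h followed the line. Compared with its own 0 h library, 30 of 34 members were lower in A217 and 32 of 34 in A220, whereas 29 of 34 were higher in A225, 29 of 34 in A218 and 30 of 34 in A223. The inducible line A225 thus moved with the negative lines and against the other inducible lines. Of all tested features, 8559, 8247, 8308, 7924 and 8141 of 16462 were lower at 4 h in A217, A220, A225, A218 and A223.

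The 4 h spread was widest among the targets with low levels. Slc16a3 had 3.56, 2.22 and 1.24 CPM at 0, 4 and 24 h in A217, 17.1, 5.6 and 3.84 CPM in A220, and 5.82, 14.7 and 1.72 CPM in A225. In negative lines it had 5.76, 10.4 and 2.2 CPM in A218 and 8.84, 18.8 and 5.79 CPM in A223. Its level at 4 h was the highest of the 3 times in A225, A218 and A223, and intermediate in A217 and A220. Bnip3 had 4.23, 9.32 and 12.2 CPM at 4 h in A217, A220 and A225, against 5.63, 17.4 and 6.12 CPM at 0 h, and 16.4 and 22.9 CPM in A218 and A223, against 9.11 and 9.4 CPM at 0 h. Ndrg1, a stress-induced growth regulator, had 6.29, 11.9 and 26.9 CPM at 4 h in A217, A220 and A225, against 7.87, 18.5 and 8.79 CPM at 0 h. Ndrg1 in A218 and A223 had 15.7 and 25.9 CPM, against 10.2 and 10.8 CPM at 0 h. At 24 h Ndrg1 was back between 8.37 and 10.4 CPM in all 5 lines. Pdk1 had 64.6, 62 and 87.9 CPM at 4 h in A217, A220 and A225 and 84.7 and 106 CPM in A218 and A223, with A225 again beside the negative lines. Adm had 15, 34 and 71 counts at 4 h in A217, A220 and A225, and 39 and 71 counts in A218 and A223.

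**Figure D3:**
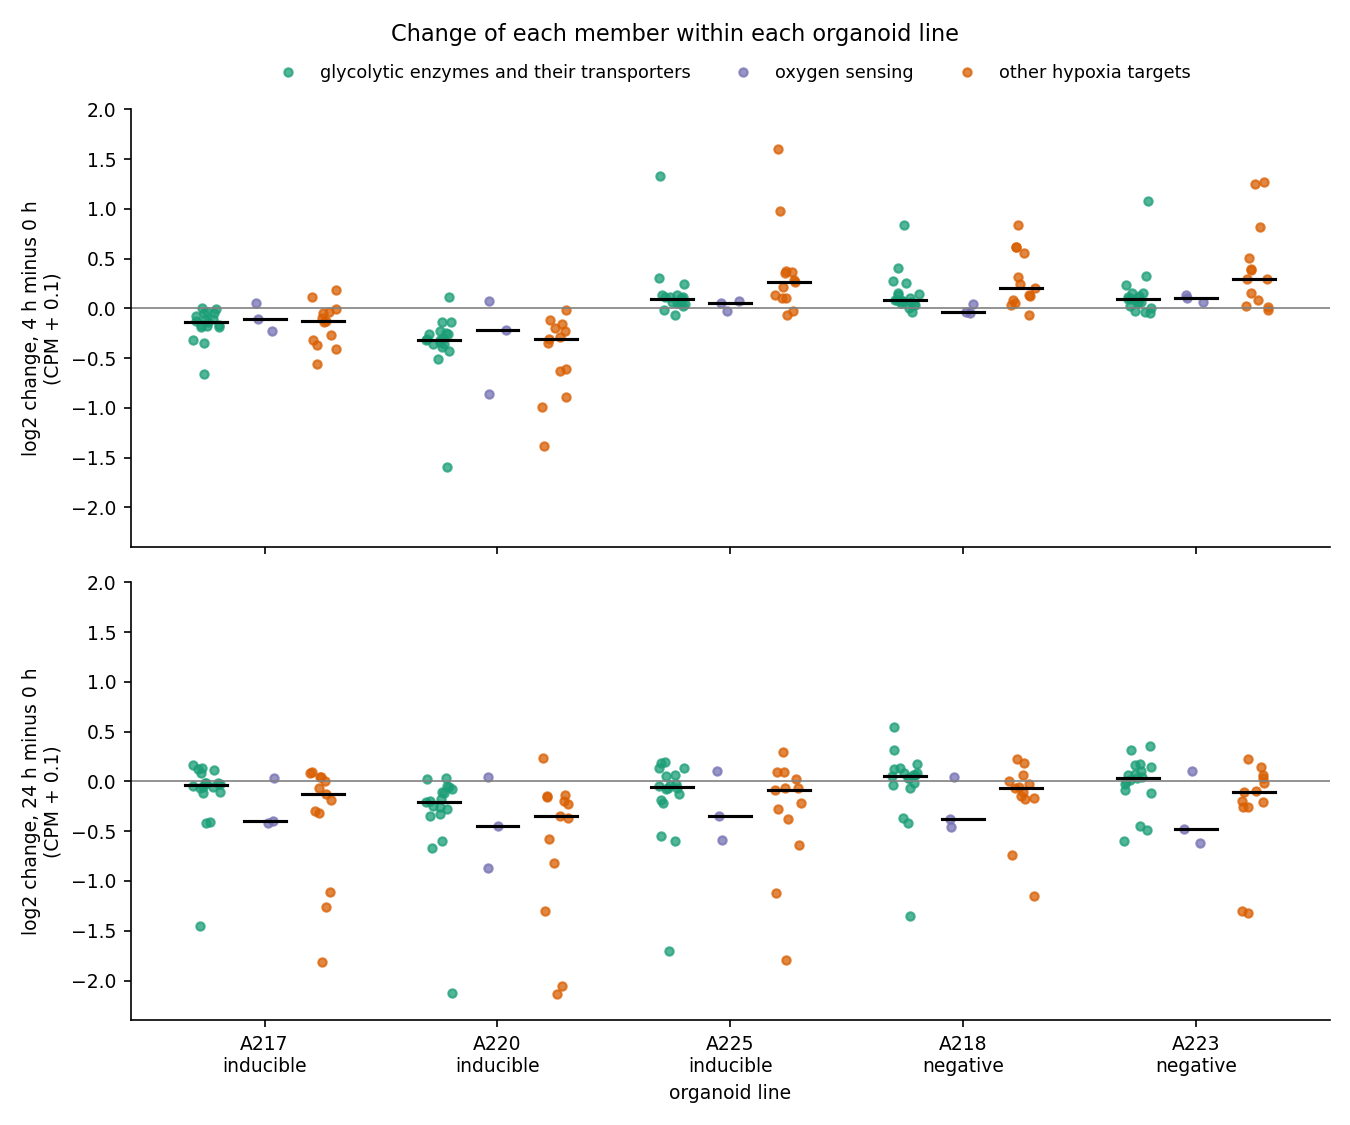
Log2 change of CPM plus 0.1 against the 0 h library of the same line (y axis) at 4 h (upper panel) and 24 h (lower panel), with 1 point per member and line and a black bar at the median of each list; inducible lines stand to the left of negative lines. At 4 h the medians of both large lists lie below 0 in A217 and A220 and above 0 in A225, A218 and A223; at 24 h the median of the 3 oxygen sensing genes lies between -0.48 and -0.35 in all 5 lines, with Hif1a above it.

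By list, the median log2 change at 4 h within a line was -0.14, -0.31 and 0.09 for the glycolytic genes in A217, A220 and A225, and 0.08 and 0.09 in A218 and A223. For the other targets it was -0.13, -0.31 and 0.26 in the inducible lines and 0.20 and 0.30 in the negative lines. The median of all features lay within 0.01 of 0 in each line. Taken by genotype in the fit, the glycolytic list had a median of -0.14 in inducible and 0.09 in negative lines, and the other targets -0.12 and 0.27. Without the 0 h library of A220 the inducible medians were 0.00 for the glycolytic list and 0.09 for the other targets, so the value of the first and the direction of the second rest on that library. The difference between the 4 h responses of the genotypes lay below 0 for 33 of 34 members, against 52.7% of all features, all but Hif1a. None of these differences was called, where 0.0121% of all features were, with 1 member at an unadjusted p below 0.05 and none called with the replicate block or limma-voom. Bnip3 had the largest, -1.26 ± 0.73 (edgeR adjusted p = 1).

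Lines also differed before doxycycline, in a way that did not follow genotype. At 0 h A220 had the highest CPM of the 5 lines for 29 of 34 members and A217 the lowest for 21 of 34, although both are inducible. At 4 h A223 was highest for 24 and A217 lowest for 27 of 34, and at 24 h A223 was highest for 18 and A217 lowest for 17. No member was called between inducible and negative lines at 0 h (none at an unadjusted p below 0.05), at 4 h (9) or at 24 h (2), against 0%, 0.0121% and 0.0121% of all features. At these times DESeq2 and limma-voom called none. By sign alone, 12 of 34 members were lower in inducible than in negative lines at 0 h, 31 of 34 at 4 h and 27 of 34 at 24 h. Of all features 45.2%, 49.5% and 48.6% were lower in these comparisons. Over all libraries the highest value exceeded the lowest 35.2-fold for Adm, 15.2-fold for Slc16a3, 8.93-fold for Bnip3, 7.56-fold for Ankrd37 and 4.28-fold for Ndrg1. At the other end the factor was 1.21 for Slc2a1 and 1.29 for Bnip3l. Car9, the carbonic anhydrase that sets surface pH in low oxygen, had its own line pattern, at 85.1 to 91.1 CPM in A223 at all times and 122 to 176 CPM in the other 4 lines. The remaining members, Gpi1, Pfkfb3, Tpi1, Pgam1, Vegfa, P4ha2, Kdm3a and Hilpda, were called in no comparison in either fit, and their highest value exceeded the lowest by 1.31 to 1.71 times.

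**Figure D4:**
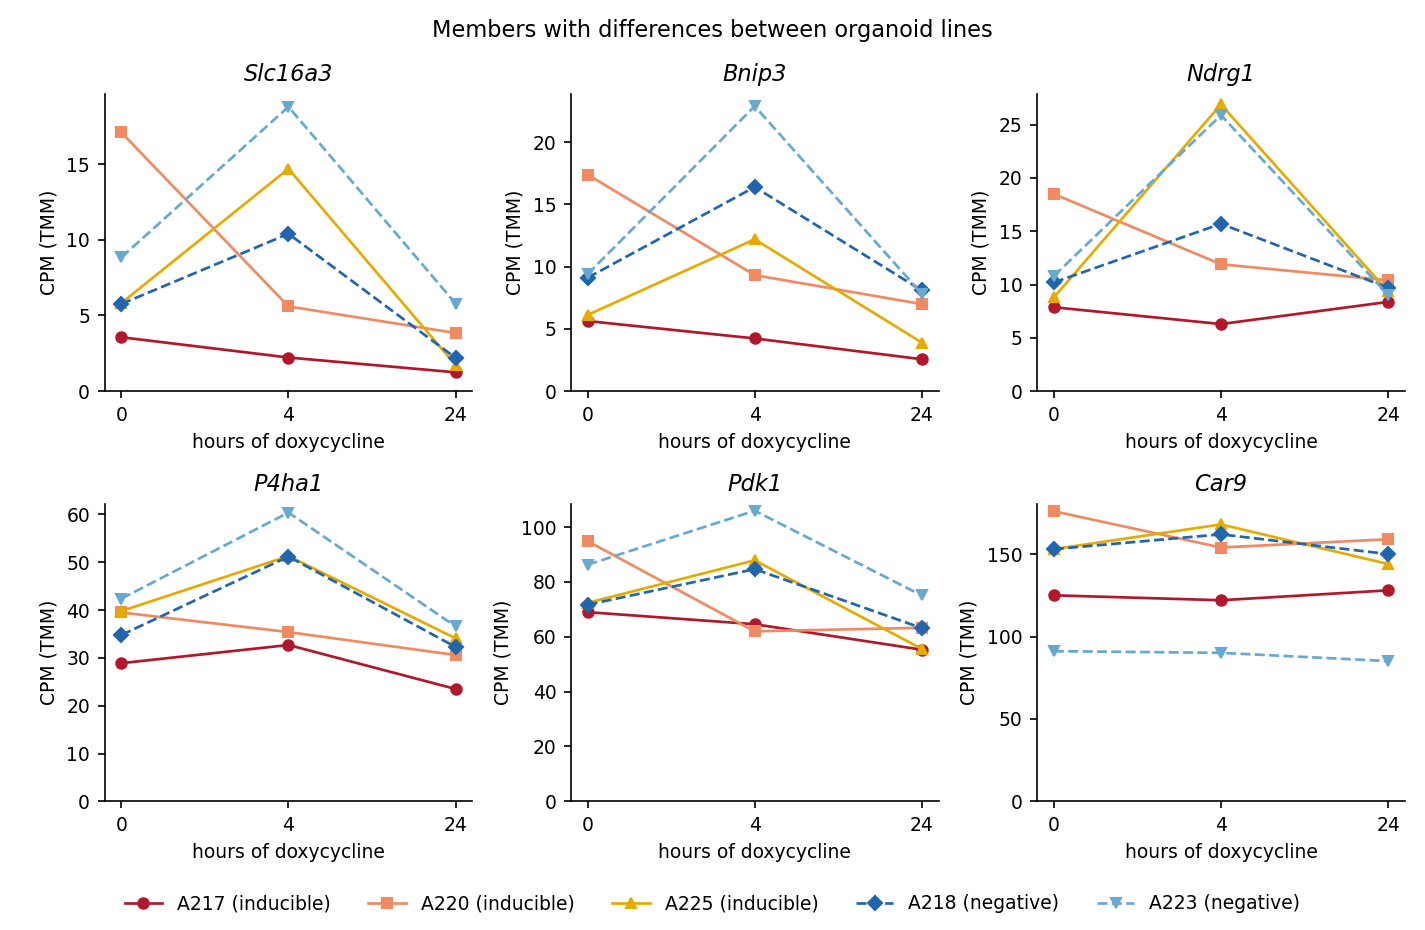
CPM with TMM scaling (y axes, from 0) at 0, 4 and 24 h of doxycycline (x axes, evenly spaced) for 6 members that differ between organoid lines, with solid lines for inducible and dashed lines for negative organoid lines. Slc16a3, Bnip3 and Ndrg1 are high at 0 h in A220 and peak at 4 h in A225, A218 and A223, and Car9 is low in A223 at every time.

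Several members have near-identical copies elsewhere in the genome, among which reads can be split. Eno1 (ENSMUSG00000063524.13, chromosome 4, 150236721 to 150248879) has the copy Eno1b (ENSMUSG00000059040.5, chromosome 18, 48045335 to 48048412), annotated as protein coding, with 99.45% identity over 92.24% of its transcript. Eno1b held 412, 326 and 377 CPM at 0, 4 and 24 h in A220, 361, 374 and 368 CPM in A218 and 401, 407 and 413 CPM in A223. In A217 it held 1.21, 1.95 and 1.2 CPM and in A225 0.386, 0.119 and 0.587 CPM. The lines thus fell into those with 24.3 to 25.2% of the joint level of both genes in Eno1b and those with at most 0.168%, a division that did not follow genotype or time. Eno1 itself had 1261, 1120 and 1349 CPM at 24 h in A217, A220 and A225, against 1304, 1221 and 1387 CPM at 0 h. The negative lines A218 and A223 had 1134 and 1244 CPM, against 1084 and 1236 CPM at 0 h, and its 4 h values were 1162, 1017 and 1435 CPM in inducible and 1139 and 1240 CPM in negative lines. With copies added, the log2 difference of Eno1 between inducible and negative lines at 0 h was -0.10 ± 0.11, against 0.17 ± 0.13 without them, and neither was called. So the sign of that difference depends on where the reads of the copy are counted.

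**Figure D5:**
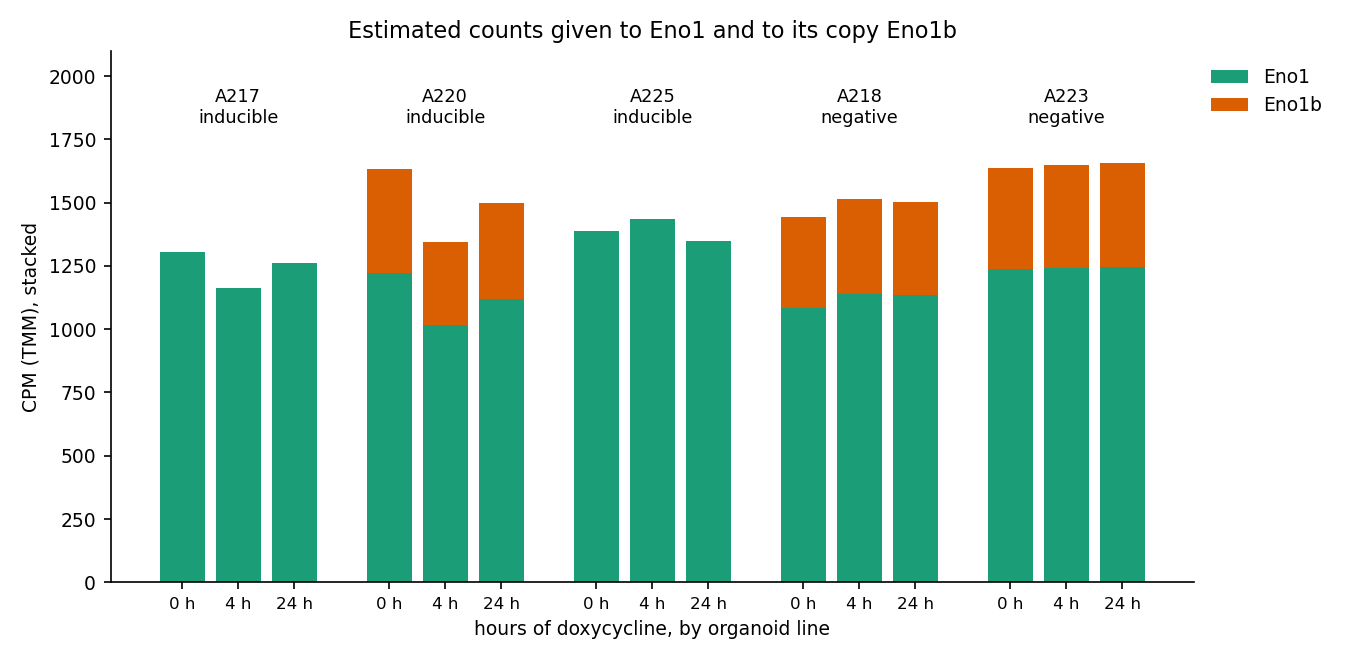
CPM with TMM scaling given to Eno1 (green) and stacked on it to Eno1b (orange) in each of the 15 libraries (x axis, hours of doxycycline by organoid line; y axis from 0), with inducible lines to the left of negative lines. A220, A218 and A223 carry 326 to 413 CPM of Eno1b at all times, whereas A217 and A225 carry at most 1.95 CPM.

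Gapdh had 293 copies elsewhere, of which 287 are annotated as pseudogenes, and these took 2.12 to 3.65% of the joint counts. The copy with the most counts was Gm7336, with 345 to 833 estimated counts per library. Aldoa, Ldha, Pgk1, Pgam1, Tpi1, Pkm, Gpi1, Mif, Bnip3, Bnip3l, Hilpda and Ankrd37 had between 1 and 20 copies, which took at most 1.46% of the joint counts in any library. Counting the copies with the member changed none of the 14 calls named above for the unpaired test. The other members had no copy under the criteria used.

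Genes of the pathway that are not members were taken from lists of HIF subunits, isoenzymes and further targets. Of 9 HIF subunits and regulators, 2 rose at 24 h over both genotypes and none fell, against 10.9% and 7.83% of all features. Vhl, the ubiquitin ligase subunit that binds hydroxylated HIF1A, rose by 0.20 ± 0.05 (edgeR adjusted p = 0.0148) and Hif1an, the asparagine hydroxylase that inhibits HIF1A, by 0.15 ± 0.04 (0.0142). Arnt, the shared partner, and Epas1, the alpha subunit HIF2A, had changes of 0.06 ± 0.07 and 0.13 ± 0.09 and were not called (edgeR adjusted p = 0.612 and 0.345). Egln1 and Egln3 were lower at 24 h, while Vhl and Hif1an were higher. Egln2, the remaining prolyl hydroxylase of this family, had a change of 0.14 ± 0.06 (edgeR adjusted p = 0.151), and of 0.13 ± 0.04 with the replicate block (0.0158). With the block, Egln2 changed by 0.24 ± 0.06 in negative lines (edgeR adjusted p = 0.0116) and by 0.03 ± 0.05 in inducible lines (0.736). The difference between genotypes, -0.21 ± 0.08, was not called (edgeR with the block, adjusted p = 0.549).

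Of 18 tested isoenzymes and transporters of glycolysis outside the members, 4 rose and 1 fell at 24 h over both genotypes, against 10.9% and 7.83% of all features. Pklr, the pyruvate kinase of liver and red cells, had 34.1, 37 and 40.1 CPM at 24 h in A217, A220 and A225, against 26.7, 27.5 and 26.4 CPM at 0 h. Its values in A218 and A223 were 33.8 and 35.6 CPM, against 25.9 and 27.8 CPM at 0 h. It was higher in all 5 lines without overlap, with a log2 change of 0.42 ± 0.06 (edgeR adjusted p = 0.000643). Slc16a1, the more widespread lactate carrier, fell by 0.21 on the log2 scale (SE 0.04, edgeR adjusted p = 0.00696). Pfkfb2 rose by 0.22 ± 0.06 (0.025), and Slc2a3, a neuronal glucose importer, rose by 1.01 ± 0.26 (0.0192), at levels under 1 CPM at 0 h.

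Of 30 tested further targets of the hypoxia-inducible factors, 7 fell and 2 rose at 24 h over both genotypes, against 7.83% and 10.9% of all features, and their median log2 change was -0.04. Angptl4, a secreted inhibitor of lipoprotein lipase, rose while Ankrd37 fell, with 17.1, 40.1 and 36.5 CPM at 24 h in A217, A220 and A225, against 3.2, 8.85 and 7.69 CPM at 0 h. In A218 and A223 it had 43.1 and 45.9 CPM, against 7.05 and 8.25 CPM at 0 h. It was higher in all lines at 24 h, and in the unpaired test it was the only gene of these lists called at 4 h over both genotypes (1.59 ± 0.32, edgeR adjusted p = 0.0367). Its log2 change at 24 h was 2.39 ± 0.32 (edgeR adjusted p = 0.000583). Stc2, the secreted stanniocalcin, and Bhlhe40, a transcriptional repressor, had changes of -0.63 ± 0.17 and -0.61 ± 0.15 (edgeR adjusted p = 0.0236 and 0.0172). Hmox1, heme oxygenase, rose by 0.68 ± 0.18 (0.0194). Targets of the factors moved in both directions at 24 h, within the members and outside them.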

How the data were processed

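RNA was depleted of ribosomal RNA and sequenced as paired ends, per the labels' protocols. Quantification by the authors was with kallisto 0.43.1 and GRCm38, per the submitters' processing notes. In each deposited file stand estimated counts per transcript, not normalised, and TPM, which the authors' kallisto scaled to each library, per the file headers. The strand setting is not stated there.

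Estimated counts were summed per gene with GENCODE M21 and rounded. The 1295 mouse transcripts without a match held 0.556 to 0.593% of a library's counts and were left out. Comparisons rest on quasi-likelihood tests in edgeR 4.0.16 under R 4.3.3. These used TMM scaling, the package's own expression filter and 6 group means over all 15 libraries, on 16462 features that included all 34 members, with Benjamini-Hochberg adjustment over all of them and a threshold of 0.05. "Both genotypes" is the mean of the 2 genotypes' responses. The biological coefficient of variation was 0.157. Total counts of 47915632 to 59411540 set the counting error, and replicate spread exceeds it. Every p-value speaks only of the spread among these lines, and counts carry no molecular identifiers.

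The same organoid lines were sampled at each time, so lines pair the libraries. Same-line deviations correlated at 0.381 to 0.476 in inducible and 0.238 to 0.285 in negative lines. The replicate block added the line as a fixed term (biological coefficient of variation 0.0577), which genotype comparisons at 1 time cannot take. Limma-voom (limma 3.58.1) used the line as a random term (correlation 0.417). Also tried were median-of-ratios scaling, DESeq2 1.42.0, no filter, 1 CPM in 3 libraries, the compared groups alone, an effective length offset, copies added, log2(TPM + 1) and each library left out. Changes within a line used CPM plus 0.1. Copies were other genes whose transcripts matched a member's at 85% identity or more over at least 50% of their length (blastn). Only the edgeR fits, with and without the block, were tried on simulated counts, for the 24 h comparison within each genotype. Those counts held no differences between lines. Promoter windows are from RefSeq.

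Members and lists were chosen with earlier results of these data known. Members called in the main or blocked fit or above 1000 CPM on average are given in every library, and genes outside the members are at most 5 per list and comparison, by size among called genes. Arnt, Epas1 and Egln2 were named besides, with their values known. A few genes of the wider lists are counted but not reported here by name.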

Additional observations from a re-analysis of the deposited data

How the results depend on the processing

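No called result changed sign, and the 14 calls of single members in the unpaired test all stayed with DESeq2, median-of-ratios scaling, no filter, a filter of 1 CPM in 3 libraries, limma-voom, the length offset, copies added and the replicate block. The compared groups alone ended 6 of them and log2(TPM + 1) ended 1. Members called at 24 h in inducible lines numbered 6, against 13 with the replicate block, 10 with limma-voom and 0 with the compared groups alone, and 1 to 7 with 1 library left out. In negative lines at 24 h the number was 1, against 8 with the replicate block, 5 with DESeq2, 6 with limma-voom and 5 with the compared groups alone, and 0 to 2 with 1 library left out. Over both genotypes at 24 h it was 7, against 14 with the replicate block and 11 with limma-voom, and 5 to 9 with 1 library left out. At 4 h the replicate block called 1 in negative lines and 1 over both genotypes, as did limma-voom over both genotypes, where the main count was 0.

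The glycolytic median in negative lines at 24 h was 0.04, against 0.02 with DESeq2, median-of-ratios scaling or the length offset, 0.03 with no filter, the compared groups alone or copies added, 0.01 with 1 CPM in 3 libraries and -0.03 with log2(TPM + 1). With 1 library left out it was -0.03 to 0.12, and at 4 h in negative lines 0.02 to 0.15. The median of other targets in negative lines was 0.16 at 4 h with the length offset or log2(TPM + 1), against 0.27, and -0.18 and -0.21 at 24 h, against -0.13. With 1 library left out it was 0.11 to 0.35 at 4 h and -0.16 to -0.06 at 24 h in negative lines, and -0.31 to -0.10 at 24 h in inducible lines. The cause of these shifts was not tested.

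With 2 or 3 lines per group, small differences between genotypes were not detectable, and a missing call does not show equal levels. Adm rests on 2 to 74 counts per library.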

Other observations

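Pathways that branch from glycolysis were described from lists of genes outside the members. Of 10 tested genes of gluconeogenesis and the pentose phosphate pathway, 3 rose and 1 fell at 24 h over both genotypes, against 10.9% and 7.83% of all features. G6pdx, the entry enzyme of the pentose phosphate pathway, had 344, 357 and 362 CPM at 24 h in A217, A220 and A225, against 296, 317 and 311 CPM at 0 h. In A218 and A223 it had 358 and 384 CPM, against 324 and 343 CPM at 0 h. It was higher in all 5 lines, by 0.18 ± 0.04 (edgeR adjusted p = 0.00933). Rpia, the isomerase of ribose phosphate, fell by 0.22 on the log2 scale (SE 0.04, edgeR adjusted p = 0.00337), and Taldo1, transaldolase, rose by 0.13 ± 0.04 (0.0264). By genotype, Taldo1 changed by 0.20 ± 0.05 in negative lines (edgeR adjusted p = 0.0586) and by 0.05 ± 0.04 in inducible lines (0.552). The difference, -0.15 ± 0.07, was not called. Pck1, the entry enzyme of gluconeogenesis, was called higher at levels under 1 CPM (edgeR adjusted p = 0.0255). Its log2 change was 2.65 ± 0.77 in negative lines (edgeR adjusted p = 0.0747) and 0.83 ± 0.58 in inducible lines (0.433). The difference for Pck1, -1.81 ± 0.96, was not called.

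A list of 12 genes covered the entry of pyruvate into mitochondria, its oxidation there, and the regulators of that oxidation. Among the regulators were the inhibitory kinases Pdk2, Pdk3 and Pdk4, so the list mixes opposing roles. The main test called none of the 12 at 4 h or 24 h. The fit with the replicate block called 3 at 24 h over both genotypes, Mpc2 and Pdha1 higher and Dlat lower, where 36.1% of all features were called. The median log2 change of the 12 genes was 0.03.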
